A study of Mus musculus with 2 samples.

Results

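Hmgcs1, Idi1, Fdps, Fdft1, Sqle, Cyp51, Srebf2 and Insig1 are 8 genes of sterol synthesis and of its control. They were taken by gene symbol alone from the 32285 genes listed in each of 2 single-cell RNA-seq libraries. All 8 were detected. The set holds 6 enzymes and 2 regulators and no uptake receptor, so uptake is described from a separate list of genes.

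The libraries hold cells from the central nervous system (CNS) of mice and are labelled as microglia-like. One is labelled Het (Cx3cr1-/+) and the other WT (Cx3cr1+/+), both replicate 1, and the study compared the CNS progeny of Cx3cr1 haploinsufficient and wild-type haematopoietic stem and progenitor cells. Both labels carry the same protocol: GFP+ and GFP- cells of the lineage-negative (Lin-) pool of Cx3cr1-/+ mice were injected into a vein of CD45.1 recipients that had received busulfan, a drug that clears the marrow, as 4 doses of 25 mg/kg. How WT donor cells were obtained, whether GFP+ and GFP- cells were kept apart, and the sex, age, time after transplantation and number of animals are not given in the sources used here. The recipients kept their own CNS cells, so a cell of either library may come from donor or host.

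Cholesterol is built from acetyl-CoA through mevalonate, isoprenoid units, squalene and lanosterol. When membranes of the endoplasmic reticulum run low in sterol, the transcription factor SREBP2, the product of Srebf2, is released with its escort SCAP from its anchor INSIG, cut in the Golgi and carried to the nucleus, where it switches on the enzymes of the route and INSIG1 itself. In the brain most cholesterol is made locally, with myelinating oligodendrocytes and astrocytes as the main makers, while macrophages can also take sterol up from debris and pass it on through apolipoprotein E and ABC transporters.

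By role, Hmgcs1 (chr13:119690379-119708260, + strand) encodes cytosolic HMG-CoA synthase, Idi1 (chr13:8885501-8892451, +) isopentenyl-diphosphate isomerase and Fdps (chr3:89093588-89101959, -) farnesyl diphosphate synthase, which together lead to the isoprenoid farnesyl diphosphate. Fdft1 (chr14:63145150-63179578, -) encodes squalene synthase, Sqle (chr15:59315077-59331192, +) squalene epoxidase and Cyp51 (chr5:4081145-4104746, -) lanosterol demethylase, which act on sterol precursors. Srebf2 (chr15:82147181-82205379, +) encodes SREBP2 and Insig1 (chr5:28071363-28078662, +) its sterol-sensing anchor. Positions are GRCm38, GENCODE M21. All are protein-coding genes.

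RefSeq promoter windows of GRCm38.p6, reaching from 250 bases before to 50 bases after the start of a gene, were at hand for 5 of the 8 genes (Hmgcs1, Idi1, Cyp51, Srebf2 and Insig1). The sequences below are shown because they hold the letters TCACCNCA, a form of the sterol regulatory element to which SREBP2 binds. They run 5′ to 3′ on the strand of the gene, with that match in capitals, up to the first start annotated in RefSeq or GENCODE. They cover chr13:119690101-119690350 (+) for Hmgcs1, chr5:4104747-4104947 (-) for Cyp51 and chr15:82147019-82147180 (+) for Srebf2.
Hmgcs1: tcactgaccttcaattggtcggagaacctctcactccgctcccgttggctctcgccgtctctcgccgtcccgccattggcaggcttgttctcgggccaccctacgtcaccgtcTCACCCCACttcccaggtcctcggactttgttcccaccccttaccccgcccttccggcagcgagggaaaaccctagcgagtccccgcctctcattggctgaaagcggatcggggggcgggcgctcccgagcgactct
Cyp51: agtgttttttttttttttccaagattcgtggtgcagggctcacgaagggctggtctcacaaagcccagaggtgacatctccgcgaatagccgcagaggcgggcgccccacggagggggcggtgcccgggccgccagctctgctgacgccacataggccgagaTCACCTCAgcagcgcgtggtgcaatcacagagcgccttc
Srebf2: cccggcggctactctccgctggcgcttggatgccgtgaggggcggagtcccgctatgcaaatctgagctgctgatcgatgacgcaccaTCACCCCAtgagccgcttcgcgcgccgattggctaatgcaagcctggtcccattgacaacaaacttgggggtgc
The match began 137 bases before the RefSeq start in Hmgcs1, 88 bases before it in Cyp51 and 162 bases before it in Srebf2. The form searched was chosen after these sequences had been read. Of 32851 windows of the same length, 4.42% held TCACCNCA on either strand and 1.24% the longer form TCACNCCAC, which overlaps it. Hmgcs1 held the longer form too, so its capitals run 1 base further. The windows of Idi1 and Insig1 held neither form in these letters. All 5 windows held CCAAT, found in 37.4% of all windows, and GGGCGG, found in 35.7%, on either strand. A match is a description of the letters and shows no binding.

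The deposited values are counts of unique molecular identifiers (UMIs), each standing for 1 captured RNA molecule, and levels are given as CPM, the UMIs of a gene per 1000000 UMIs of the cells summed. The Het library held 17828344 UMIs in 1837 barcodes and the WT library 22062823 UMIs in 2359 barcodes. After filtering, 1489 Het cells and 1949 WT cells remained, with medians of 6880 UMIs (Het) and 6637 UMIs (WT). The 8 genes took 3185 UMIs in the Het library (187 CPM) and 4225 UMIs in the WT library (198 CPM). With 1 library per genotype there is no test across samples: every difference compares these libraries, and the 95% intervals cover counting error only. Both libraries list 339 of the same barcodes, and 255 kept Het cells and 198 kept WT cells carry one. Of 15 clusters, 13 met fixed cell type markers and 2 stayed unnamed. Cells named microglia-like were 252 of the Het cells and 365 of the WT cells, so the label of the samples covers only a part of either library. Their 15 microglia markers summed to 32260 CPM in the Het and 33010 CPM in the WT library, with none at 0. Cx3cr1, the fractalkine receptor and the gene named in the genotype, stood at 1773 CPM in Het and 1860 CPM in WT microglia-like cells, and at 205 CPM in Het and 317 CPM in WT monocyte-like cells. Which part of Cx3cr1 is altered is not stated, so these 3′ counts do not check the genotype labels. Xist, made from the inactive X chromosome of females, and 4 Y-linked genes split the libraries. Among monocyte-like cells, 243 Het cells carried Xist alone and 4 a Y-linked UMI alone, against 9 and 372 WT cells. For the classes of blood origin, genotype and this mark cannot be told apart.

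Among 12 clusters of at least 50 cells, the summed level of the 8 genes ran from 72.7 to 369 CPM in the Het library. In the WT library it ran from 76.6 to 479 CPM. The intervals of the libraries did not overlap in NK cell-like cells (193 CPM Het, 99.4 CPM WT) and dendritic cell-like cells (227 CPM Het, 293 CPM WT). They were also apart in the unnamed Ctsk-Acp5-Mt3 cluster (274 CPM Het, 479 CPM WT). The spread between cell types was not tested against that between libraries. The Vcan monocyte-like cluster, led by genes of classical monocytes such as Ly6c2 and Ccr2, reached 369 CPM in the Het library (95% interval 338 to 403) and 352 CPM in the WT library (329 to 377). The microglia-like cluster with the most P2ry12, named Adamts1 after its leading gene, had 145 CPM in the Het library (128 to 164) and 139.8 CPM in the WT library (125 to 156). Neutrophil-like cells lay beside it, with 133 CPM in Het and 144 CPM in WT cells of the Camp cluster and 121 CPM in Het and 134 CPM in WT cells of the Cstdc4 cluster. In neither library did the interval of a difference separate neighbours among these 3 clusters in the order of levels. The neutrophil-like class also held the 15 microglia markers at 9666 CPM (Het) and 9626 CPM (WT). In monocyte-like cells those markers stood at 1446 CPM (Het) and 1804 CPM (WT). Their part in the neutrophil levels was not tested.

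The lowest levels were in the second microglia-like cluster, Syngr1, at 72.7 CPM in the Het and 76.6 CPM in the WT library, and in an unnamed cluster with Gpnmb, Spp1 and Apoe as its leading genes, at 79.5 CPM in the Het and 98.3 CPM in the WT library. The Syngr1 cells were also shallow, with medians of 2854 UMIs (Het) and 2517 UMIs (WT), against 10380 UMIs (Het) and 8765 UMIs (WT) in the Adamts1 cells. Dendritic cell-like cells had 227 CPM in the Het and 293 CPM in the WT library. The Cd300e monocyte-like cluster, with genes of patrolling monocytes such as Ace and Treml4, had 207.5 CPM in the Het and 215 CPM in the WT library. In the WT library, dendritic cell-like cells lay above Cd300e cells by a log2 ratio of 0.45 (0.29 to 0.60), and Cd300e cells above the Camp neutrophils by 0.58 (0.42 to 0.74). In the Het library the first of these gaps was 0.13 (-0.09 to 0.35), so those neighbours were not separated.

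**Figure D1:**
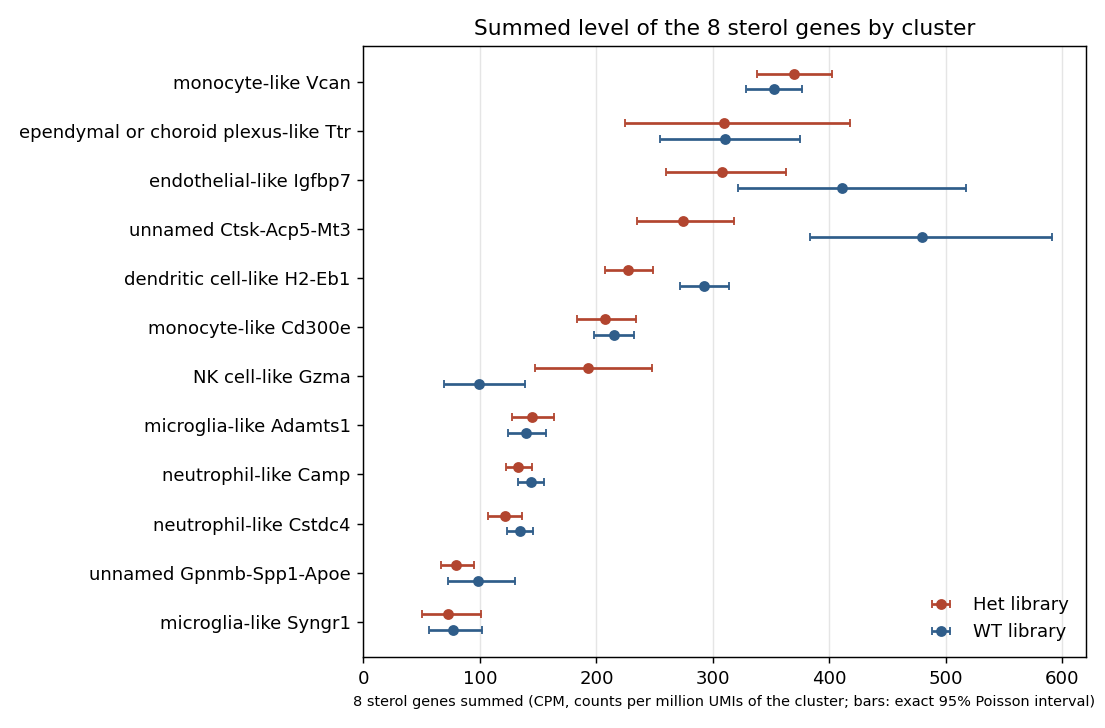
Summed level of the 8 sterol genes (horizontal axis, CPM of the cluster) in the 12 clusters with at least 50 cells over both libraries, the Het library above the WT library in each row, with exact 95% Poisson intervals for counting error. The Vcan monocyte-like cluster (369 CPM Het, 352 CPM WT) lies above the Adamts1 microglia-like cluster (145 CPM Het, 139.8 CPM WT) in both libraries, and the intervals of the Het and WT libraries do not overlap in the Ctsk-Acp5-Mt3, NK cell-like and dendritic cell-like rows.

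Some of the highest levels lay outside the myeloid classes and in an unnamed cluster. Endothelial-like cells had 308 CPM in 79 Het cells and 411 CPM in 35 WT cells. Ependymal or choroid plexus-like cells had 309.9 CPM in 39 Het cells and 310.4 CPM in 36 WT cells, and 96% of these cells carried a barcode listed in both libraries. The unnamed Ctsk-Acp5-Mt3 cluster, led by genes of osteoclasts (Ctsk, Acp5), astrocytes (Aldoc, Slc1a2) and myeloid progenitors (Mpo, Elane), had 274 CPM in the Het and 479 CPM in the WT library, with 73.4% of its cells on shared barcodes. The highest sum (8 members summed) was in 11 oligodendrocyte lineage-like cells of the Het library, at 2014 CPM (1750 to 2308) from 208 UMIs. Hmgcs1 alone stood at 707 CPM in those 11 cells, against 26.0 CPM over all kept Het cells. The WT library had 0 cells of that kind, so no ratio is given, and 11 cells carry little weight.

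After each cell was thinned to 2000 UMIs, a UMI of any of 8 members was found in 44.3% of 97 Het cells and 44.3% of 183 WT cells of the Vcan cluster. In the Adamts1 microglia-like cluster the shares were 21.2% of 113 Het cells and 21.4% of 154 WT cells. In the Gpnmb cluster 20 of 154 Het cells and 11 of 54 WT cells held one. Without thinning the Vcan shares were 84.3% (Het) and 79.2% (WT) and the Adamts1 shares 58.6% (Het) and 62.3% (WT). No cell type is known to lack these genes, so these shares have no blank to be read against.

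Microglia-like cells held less RNA of the route than monocyte-like cells in both libraries. The 8 genes summed to 129 CPM in microglia-like and 293 CPM in monocyte-like cells of the Het library, a log2 ratio of -1.18 (-1.38 to -0.98). In the WT library they summed to 126 CPM in microglia-like and 278 CPM in monocyte-like cells, a log2 ratio of -1.14 (-1.32 to -0.98). Of the 8 members, 6 were at least 1.5-fold lower in microglia-like cells of the Het library and 7 of the WT library, and 0 were higher. Of all genes with at least 50 UMIs over the 2 classes, 18.9% were lower by that fold in the Het and 17.5% in the WT library, and 23.2% (Het) and 22.9% (WT) were higher. Counting only the members with 50 UMIs, 5 of 6 (Het) and 7 of 8 (WT) were lower. The median over the members was -1.10 (Het) and -1.06 (WT), against 0.03 (Het) and 0.04 (WT) over all genes measured. In each of 13 alternatives per library the sum stayed lower in microglia-like cells, from -1.80 to -0.84 in the Het and from -1.68 to -0.83 in the WT library.

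Fdps, the farnesyl diphosphate synthase, had 59 UMIs (26.3 CPM) in microglia-like and 244 UMIs (91.5 CPM) in monocyte-like cells of the Het library, a log2 ratio of -1.80 (-2.23 to -1.38). In the WT library it had 61 UMIs (21.8 CPM) and 362 UMIs (69.2 CPM), a log2 ratio of -1.67 (-2.08 to -1.27). Idi1, the isomerase, differed by -1.49 in both libraries, from 23 against 77 UMIs (Het) and 25 against 131 UMIs (WT). The regulators were lower too. Srebf2 stood at 27.2 CPM in microglia-like and 58.5 CPM in monocyte-like cells of the Het library, a log2 ratio of -1.10 (-1.56 to -0.67), and at 28.9 CPM and 58.9 CPM in the WT library, -1.03 (-1.40 to -0.67). Insig1 differed by -1.06 (Het) and -0.77 (WT), and Cyp51 by -1.09 in both.

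Hmgcs1 and Sqle were less uniform. Hmgcs1, at the head of the route, had 23.6 CPM in microglia-like and 29.6 CPM in monocyte-like cells of the Het library, with an interval of the log2 ratio from -0.86 to 0.20, and 23.2 CPM and 38.2 CPM in the WT library (-1.15 to -0.31). Sqle, which makes the epoxide that commits squalene to sterols, had 12 UMIs in microglia-like and 16 UMIs in monocyte-like cells of the Het library, a log2 ratio of -0.16 (-1.38 to 1.01). In the WT library it had 7 and 72 UMIs, a log2 ratio of -2.46 (-3.83 to -1.35). Fdft1 was counted in only 9 and 26 UMIs (Het) and 15 and 41 UMIs (WT).

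**Figure D2:**
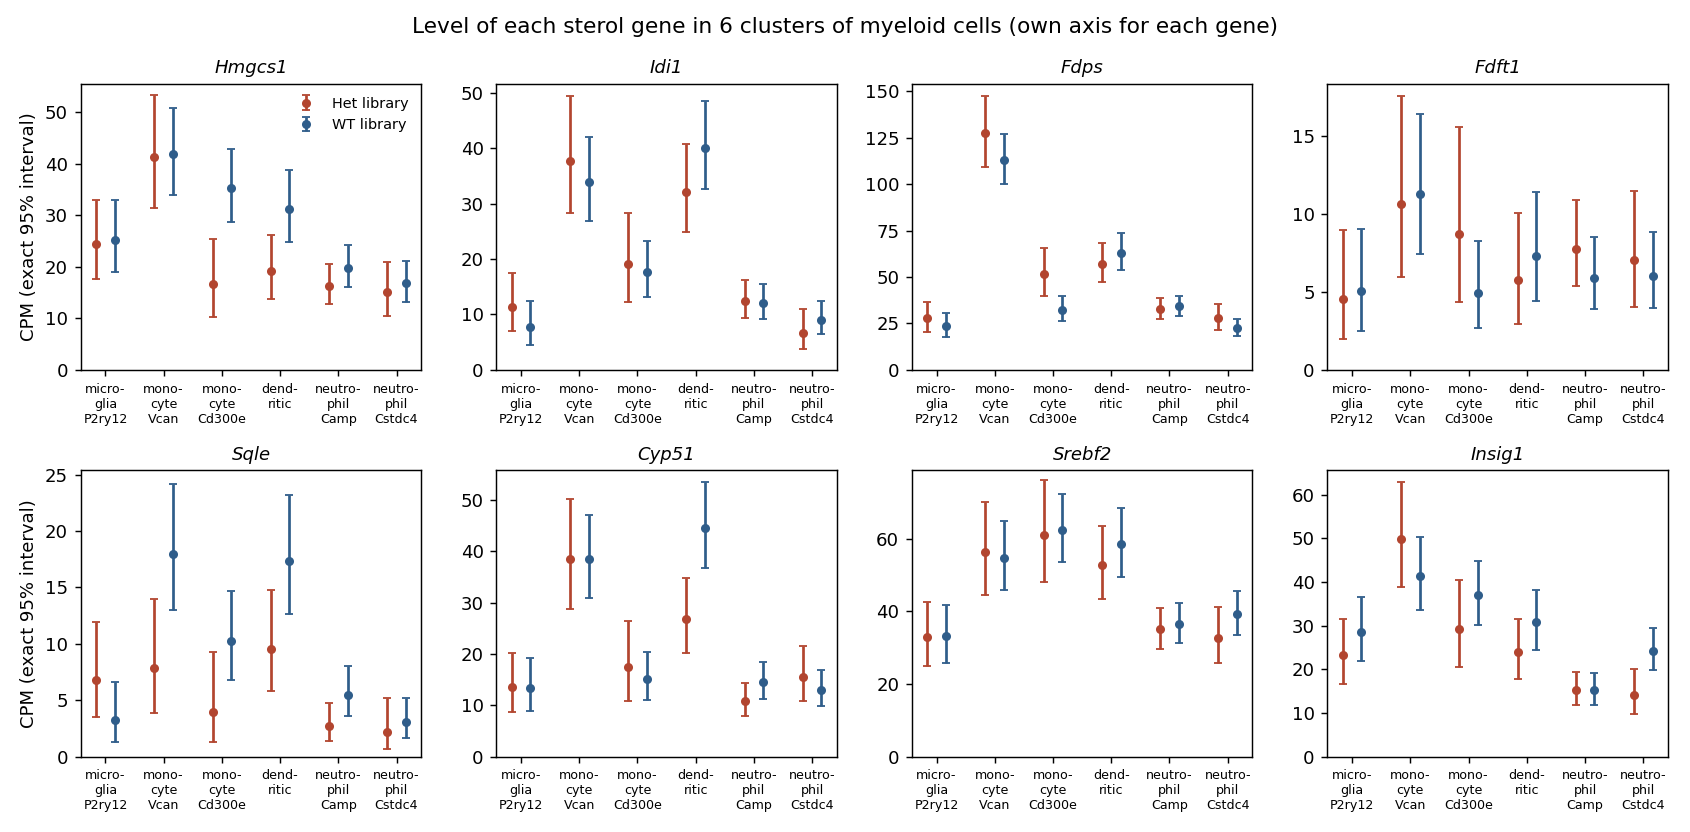
Level of each gene (vertical axis, CPM, with its own scale) in 6 clusters of myeloid cells, the Het library left of the WT library, with exact 95% Poisson intervals. Fdps peaks in the Vcan monocyte-like cluster (127 CPM Het, 113 CPM WT), while Srebf2 is level between the Vcan (56.2 CPM Het, 54.7 CPM WT) and Cd300e clusters (61.0 CPM Het, 62.3 CPM WT).

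Other genes of sterol synthesis lay the same way. Of a list of 16 further genes, 7 were measured in the Het and 9 in the WT library with at least 50 UMIs over the 2 classes. Of these, 5 (Het) and 7 (WT) were at least 1.5-fold lower in microglia-like cells and 0 higher, against the 18.9% (Het) and 17.5% (WT) of all genes lower, with medians of -0.79 (Het) and -0.91 (WT). Mvd, the mevalonate diphosphate decarboxylase, stood at 8.03 CPM in microglia-like and 13.9 CPM in monocyte-like cells (Het), and at 5.71 and 13.2 CPM (WT). Pmvk, the phosphomevalonate kinase before it, had log2 ratios of -1.23 (Het) and -0.93 (WT), and Lbr, a sterol reductase that also anchors chromatin to the nuclear envelope, -1.23 (Het) and -0.97 (WT). Nsdhl, a later sterol dehydrogenase, was measured in the WT library alone, at -0.97.

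The lists for handling sterol did not follow one direction. With 4 to 9 genes measured in each and 23.2% (Het) and 22.9% (WT) of all genes higher and 18.9% (Het) and 17.5% (WT) lower, nothing is read from their counts, and the values are a description. In the list of sterol efflux, 6 of 7 genes were measured. Of these, 2 (Het) and 3 (WT) were higher in microglia-like cells by at least 1.5-fold and 1 was lower in each library. Apoe, the apolipoprotein that carries sterol out of glia, differed by a log2 ratio of 4.56 (Het) and 3.78 (WT), and Abca1, the transporter that loads it, by 4.13 (Het) and 3.86 (WT). Nr1h3, which encodes the sterol-sensing receptor LXR alpha, was lower, at -1.90 (Het) and -1.74 (WT). In a list headed SREBP control, 6 (Het) and 7 (WT) of 7 genes were measured. Of these, 3 (Het) and 2 (WT) were higher and 1 was lower in each library. That list also holds Mylip and Stard4, which act on uptake and transport, so its counts do not describe SREBP control alone. Mylip, a ligase that removes lipoprotein receptors, was higher at 2.63 (Het) and 2.28 (WT). Insig2, which encodes the other INSIG protein, was also higher, with 76 UMIs in microglia-like and 32 UMIs in monocyte-like cells (Het) and 78 and 74 UMIs (WT). Stard4, a carrier of cholesterol inside cells, was lower at -2.66 (Het) and -2.27 (WT), from 6 against 45 UMIs (Het) and 9 against 81 UMIs (WT). In the list of uptake and intracellular transport, 9 of 10 genes were measured, 3 higher and 3 lower in the Het and 1 higher and 5 lower in the WT library. Scarb1, a receptor for high-density lipoprotein, was lower at -1.66 (Het) and -1.63 (WT), and Cd36, a scavenger receptor for oxidised lipoprotein, at -1.56 (Het) and -2.05 (WT). Of 10 genes of fatty acid synthesis of the SREBP-1 type, 4 (Het) and 5 (WT) were measured, 2 higher and 1 lower in the Het and 1 higher and 2 lower in the WT library. Fads1, a fatty acid desaturase, was higher at 2.57 (Het) and 3.16 (WT), and Elovl5, an elongase, lower at -1.03 (Het) and -0.92 (WT).

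Within the monocytes the classical cells held more than the patrolling ones. The sum in the Vcan cluster exceeded that in the Cd300e cluster by a log2 ratio of 0.83 (0.61 to 1.05) in the Het and 0.71 (0.56 to 0.87) in the WT library. At least 1.5-fold higher in the Vcan cluster were 6 members in the Het and 5 in the WT library, against 18.7% (Het) and 19.3% (WT) of all measured genes, and 0 members were lower, against 22.4% (Het) and 22.2% (WT). Counting only the members with 50 UMIs, as those shares do, 5 of 6 (Het) and 4 of 7 (WT) were higher. The further list of sterol synthesis was less uniform, with 2 of 6 genes measured at least 1.5-fold higher in the Het library (median -0.10) and 6 of 9 in the WT library (median 0.94), and 0 lower. Those of the Het library were Lbr and Ebp, a sterol isomerase. Lbr stood at 1.89 (Het) and 1.23 (WT) and Ebp at 1.07 (Het) and 0.98 (WT). Fdps had 179 UMIs (127 CPM) in Vcan and 65 UMIs (51.5 CPM) in Cd300e cells of the Het library, a log2 ratio of 1.31, as for Hmgcs1, and 270 UMIs (113 CPM) in Vcan and 92 UMIs (32.4 CPM) in Cd300e cells of the WT library, 1.80. Srebf2 did not separate the clusters in either library, with log2 ratios of -0.12 (-0.59 to 0.35) in the Het and -0.19 (-0.52 to 0.15) in the WT library. In the WT library Hmgcs1 (0.25, -0.17 to 0.66) and Insig1 (0.16, -0.25 to 0.57) did not separate them either. The same held in the Het library for Fdft1 (0.29, -0.93 to 1.56) and Sqle (0.98, -0.66 to 2.86). Cells with at least 5 UMIs of 6 cell cycle genes, called dividing here, were 28.4% of the Het and 19.8% of the WT Vcan cells, but 0.529% of the Het and 0.905% of the WT Cd300e cells. The part of cell division in this gap was not tested.

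The unnamed Gpnmb cluster held less than the Adamts1 microglia-like cells. The log2 ratio of the sums was -0.87 (-1.19 to -0.55) in the Het and -0.51 (-0.97 to -0.07) in the WT library. The median over the members was -0.785 (Het) and -0.633 (WT), against -0.212 (Het) and -0.209 (WT) over all genes measured. The WT interval of the sum includes that all-gene median, and the Het interval does not. In the WT library Fdps (0.26), Cyp51 (0.27) and Fdft1 (0.25) lay above 0, with intervals that include 0. At least 1.5-fold lower were 5 members in the Het and 4 in the WT library, against 23.5% (Het) and 25.8% (WT) of all measured genes, and 0 members were higher, against 5.98% (Het) and 6.13% (WT). Counting only the members with 50 UMIs, as those shares do, 4 of 4 (Het) and 2 of 4 (WT) were lower. Insig1 had 14 UMIs (8.90 CPM) in Gpnmb and 41 UMIs (23.3 CPM) in Adamts1 cells of the Het library, a log2 ratio of -1.39 (-2.38 to -0.48), and 4 UMIs (8.03 CPM) and 62 UMIs (28.5 CPM) in the WT library, -1.83 (-3.75 to -0.40). Apoe ran the other way, higher in the Gpnmb cells of the Het library by 1.94, but it is one of the genes that lead that cluster, so this is no finding.

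Over 18 profiles, which are 9 cell classes in each of 2 libraries, the 8 genes mostly varied together. Pearson r of log2(CPM + 10) between pairs of members had a median of 0.61 over 28 pairs, from -0.24 to 0.89. Hmgcs1 and Fdps were the closest pair (0.89), then Fdps and Cyp51 (0.83) and Idi1 and Fdps (0.82). Srebf2 stood apart, with r of -0.24 with Fdft1, -0.13 with Sqle and -0.04 with Hmgcs1, and 0.30 with Insig1 as its highest. Among 8728 other genes with at least 200 UMIs, those closest to the sum included Ndufa6 (0.83), Prdx2 (0.83), Ndufv1 (0.83), Msmo1 (0.81), Smdt1 (0.80), Avpi1 (0.79) and Mdh2 (0.79). Msmo1 is a sterol synthesis enzyme from the fixed list, Ndufa6 and Ndufv1 are subunits of mitochondrial complex I, and Mdh2 is the mitochondrial malate dehydrogenase. Profiles of a library share its depth and free RNA, and the classes differ in cell number, so these values are a description only.

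Between the libraries, the microglia-like class showed no difference in the 8 genes beyond counting error. The summed level was 129 CPM in the Het and 126 CPM in the WT library, a log2 ratio of 0.04 (-0.19 to 0.27). That interval does not show that the levels were equal. The median over the members was 0.08, against 0.01 over all 7804 measured genes. Sqle alone was past 1.5-fold, with 12 UMIs (Het) and 7 UMIs (WT), a log2 ratio of 1.10 (-0.36 to 2.68) that ran from -1.99 to 1.58 over 11 alternatives. Of all genes with at least 50 UMIs, 3.04% were that much higher in the Het library and 2.15% lower, against 0 of the 5 members with as many. None of the 8 intervals excluded equality, against 10.9% of all genes. Hmgcs1 stood at 23.6 CPM (Het) and 23.2 CPM (WT), Srebf2 at 27.2 CPM (Het) and 28.9 CPM (WT), and Insig1 at 19.2 CPM (Het) and 22.8 CPM (WT). In the list of efflux, Apoe was higher in the Het library at a log2 ratio of 0.81, with 18140 CPM (Het) and 10330 CPM (WT). In that of fatty acid synthesis, Scd2, a stearoyl-CoA desaturase, was higher at 0.72 (0.34 to 1.11). Mbtps2, a protease that frees SREBP in the Golgi, was higher at 0.87 (0.11 to 1.65), and Msr1, a scavenger receptor, at 0.61 (0.09 to 1.12). Of the further sterol synthesis genes, 6 of 16 were measured and 0 passed 1.5-fold.

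The Adamts1 microglia-like cluster was mixed for sex marks in the WT library only. In the Het library 122 of 128 cells carried Xist alone and 0 a Y-linked UMI alone. In the WT library 96 carried Xist alone, 23 a Y-linked UMI alone, 35 both and 21 neither. The 8 genes summed to 145.7 CPM in the Xist-marked Het cells (254 UMIs) and 95.5 CPM in the Xist-marked WT cells (86 UMIs), a log2 ratio of 0.61 (0.25 to 0.98) that ranged from 0.34 to 0.66 over 4 alternatives. At least 1.5-fold higher were 4 members and 0 were lower, against 9.97% of genes higher and 6.92% lower. Of these, Fdps and Srebf2 were among the 4 members with the 50 UMIs that those shares require, and Sqle (12 UMIs Het, 2 UMIs WT) and Cyp51 (23 UMIs Het, 6 UMIs WT) were not. Fdps had 49 UMIs (28.1 CPM) in Xist-marked Het and 12 UMIs (13.3 CPM) in Xist-marked WT cells, 1.08 (0.14 to 2.12). The other WT cells had 173 CPM (Y-linked alone), 157 CPM (both) and 284 CPM (neither). The ratio leaves out the 35 WT cells with both marks, whose median was 21840 UMIs. The Xist-marked cells had medians of 10720 UMIs (Het) and 7317 UMIs (WT). No ratio with those 35 cells added is given, so the range over alternatives does not cover that choice. Within the WT library, Xist-marked cells lay below Y-marked cells by a log2 ratio of -0.86 (-1.34 to -0.36). Of genes with 50 UMIs, 27.7% were at least 1.5-fold higher and 17.2% lower in those Xist-marked cells. The medians were 7317 and 13790 UMIs, and the part of depth was not tested. In the Vcan monocyte-like cluster Xist alone marked 89 Het cells and 1 WT cell, and a Y-linked UMI alone 3 Het and 125 WT cells. Whether the Xist-marked microglia-like cells of each library share an origin, donor or host, was not tested. Cx3cr1 in the Xist-marked cells stood at 2043 CPM (Het) and 2990 CPM (WT).

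In the monocyte-like class the sum did not differ beyond counting error either, at 293 CPM in the Het and 278 CPM in the WT library, a log2 ratio of 0.08 (-0.05 to 0.20), and 7 of 12 alternatives moved it below 0. Its members went different ways. Sqle was lower in the Het library, with 16 UMIs (5.997 CPM), against 72 UMIs (13.8 CPM) in the WT library, a log2 ratio of -1.20 (-2.08 to -0.40). It was lower in both monocyte clusters, with 11 UMIs (Het) and 43 UMIs (WT) in Vcan cells and 5 UMIs (Het) and 29 UMIs (WT) in Cd300e cells, where the interval reached 0.02. Under 12 alternatives the ratio of Sqle ran from -2.61 to -0.79. Of 8 members, Sqle alone was past 1.5-fold lower, against 2.35% of all genes, and 0 were higher by that fold, against 2.27%. Its interval was below equality, as for 4.79% of genes.

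Fdps was higher, with 91.5 CPM (244 UMIs) in Het and 69.2 CPM (362 UMIs) in WT monocyte-like cells, a log2 ratio of 0.40 (0.16 to 0.64), an interval above equality as for 5.22% of genes. That direction turned to -0.44 when cells were thinned to 2000 UMIs and to -0.12 when each library was clustered alone. In the Cd300e cluster Hmgcs1 and Fdps parted. Hmgcs1 had 21 UMIs (16.6 CPM) in Het and 100 UMIs (35.2 CPM) in WT cells, -1.08 (-1.84 to -0.39), while Fdps had 65 UMIs (51.5 CPM) in Het and 92 UMIs (32.4 CPM) in WT cells, 0.67 (0.19 to 1.14). Genes past 1.5-fold lower were 3.61% and higher 2.34% of those measured in that cluster. Srebf2 was level, at 61.0 CPM (Het) and 62.3 CPM (WT). Of the further sterol synthesis genes, 10 of 16 were measured in the class and 2 passed, both lower: Nsdhl at -0.81 (-1.71 to 0.02) and Sc5d, a late desaturase, at -0.78 (-1.51 to -0.11). Of fatty acid synthesis, Acaca (0.69) and Fasn (0.59) were higher, with intervals that include 0.

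**Figure D3:**
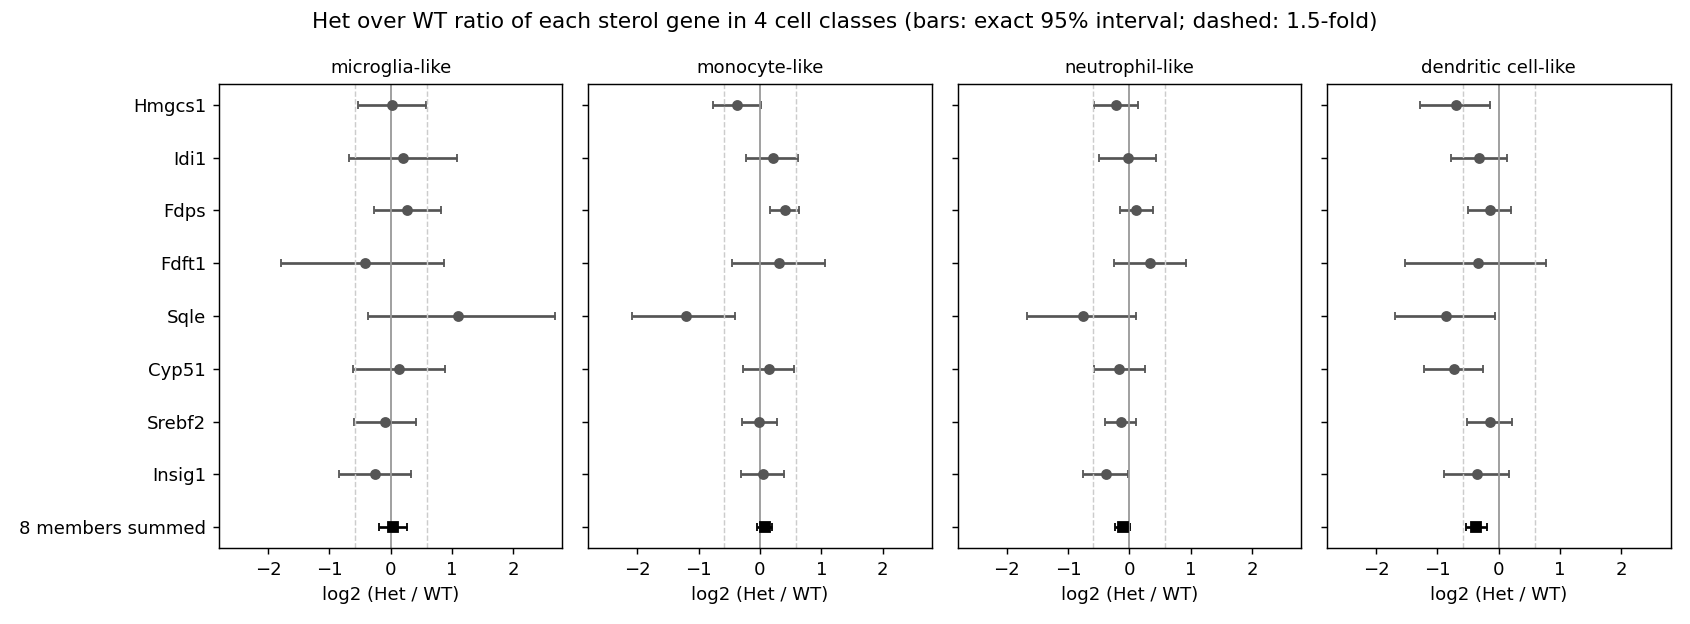
Log2 ratio of Het over WT (horizontal axis) for each gene and for the sum in 4 cell classes, with exact conditional 95% intervals for counting error; dashed lines mark 1.5-fold and the solid line equality. In the dendritic cell-like panel all 8 points lie left of 0 and the sum is at -0.37 (-0.53 to -0.20), while in the other panels the interval of the sum includes 0.

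Dendritic cell-like cells had less of the route in the Het library. The sum was 227 CPM (474 UMIs) in Het and 293 CPM (761 UMIs) in WT cells, a log2 ratio of -0.37 (-0.53 to -0.20), and without shared barcodes -0.41 (-0.58 to -0.24). All 8 members had a ratio below 0 and their median was -0.35, against 0.02 over 7114 genes. Cyp51 had 56 UMIs (26.8 CPM) in Het and 116 UMIs (44.6 CPM) in WT cells, -0.73 (-1.22 to -0.26). Hmgcs1 had 40 UMIs (19.2 CPM) in Het and 81 UMIs (31.1 CPM) in WT cells, -0.70 (-1.28 to -0.14). Sqle had 20 UMIs (9.58 CPM) in Het and 45 UMIs (17.3 CPM) in WT cells, -0.85 (-1.69 to -0.06). These 3 were past 1.5-fold with intervals below equality, against 2.56% of genes past that fold lower and 5.88% with such an interval, and 0 members were past it higher, against 4.78% of genes. Fdps (-0.15) and Srebf2 (-0.15) had the ratios closest to 0. In the further list of sterol synthesis, Sc5d was lower too, at -1.34 (-2.36 to -0.41), and 0 of the 8 genes measured were past 1.5-fold higher. Of 9 uptake genes measured, Scarb1 was lower at -0.80 (-1.56 to -0.07) and Cd36 higher at 0.61 (0.18 to 1.03).

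That difference moved with the choice of cells. It was -0.01 (-0.27 to 0.26) in the 31 Het and 60 WT cells so named after the stricter cell filter and a new clustering. At a finer clustering it was -0.07 (-0.30 to 0.16) in the 61 Het and 91 WT cells so named. Xist alone marked 131 Het and 21 WT cells, and a Y-linked UMI alone 9 Het and 111 WT cells. Among Xist-marked cells the direction turned, with 223.7 CPM in Het and 93.4 CPM in WT cells, a log2 ratio of 1.26 (0.54 to 2.08) that rests on 16 WT UMIs. Within the WT library, Xist-marked cells lay below Y-marked cells by -1.80 (-2.62 to -1.09). The class also held neutrophil markers (12 genes, 0 at 0) at 1643 CPM in the Het and 867 CPM in the WT library, and microglia markers (15 genes, 0 at 0) at 12240 CPM (Het) and 10090 CPM (WT), whose part in the result was not tested.

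Neutrophil-like cells had 129 CPM (855 UMIs) in the Het and 139 CPM (1257 UMIs) in the WT library, a log2 ratio of -0.11 (-0.24 to 0.02), beside a median of -0.09 over all 9570 genes measured. Insig1 had an interval below equality, with 99 UMIs (14.9 CPM) in Het and 176 UMIs (19.5 CPM) in WT cells, -0.38 (-0.75 to -0.02), as did 19.8% of all genes. Sqle was past 1.5-fold, at 2.57 CPM (Het) and 4.32 CPM (WT), with an interval from -1.67 to 0.11, and 3.95% of genes were that much lower and 2.29% higher. Without shared barcodes the sum was at -0.005. In the uptake list Cd36 was lower at -0.78 (-0.95 to -0.61), and in the efflux list Nr1h3 at -0.59 (-1.03 to -0.15).

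NK cell-like cells showed the opposite direction on few counts. The sum was 193 CPM (60 UMIs in 32 cells) in the Het and 99.4 CPM (34 UMIs in 59 cells) in the WT library, a log2 ratio of 0.95 (0.32 to 1.61), and 1.04 without shared barcodes. No single member reached 50 UMIs. At least 1.5-fold higher were 6 members and 1 was lower, and each member's interval included equality. Of 1834 measured genes, 9.43% were higher and 7.74% lower by that fold. Those shares require 50 UMIs, so they are no like measure for these members. Endothelial-like cells had Fdps at 65.4 CPM (31 UMIs) in the Het and 154 CPM (27 UMIs) in the WT library, -1.24 (-2.03 to -0.43), with 11.8% of genes below equality by their interval, and a sum at -0.41 (-0.83 to 0.01). In the unnamed Ctsk-Acp5-Mt3 cluster the sum was lower in the Het library by -0.81 (-1.19 to -0.42). Of its genes with 50 UMIs, 16.6% were at least 1.5-fold higher and 8.82% lower. That cluster is led by genes of several cell types, and the part of its make-up in the ratio was not tested.

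Dividing and other Vcan monocytes differed between the libraries in opposite directions. In dividing cells the sum was 533 CPM (258 UMIs, 29 cells) in the Het and 317 CPM (243 UMIs, 38 cells) in the WT library, a log2 ratio of 0.75 (0.49 to 1.01). In the other cells it was 283 CPM (261 UMIs, 73 cells) in the Het and 369 CPM (600 UMIs, 154 cells) in the WT library, -0.38 (-0.60 to -0.17). Within the Het library, dividing cells lay above the others by 0.91 (0.66 to 1.17), and within the WT library below them by -0.22 (-0.44 to -0.004). The cell cycle genes themselves stood at 1676 CPM in dividing Het and 1808 CPM in dividing WT cells. The split was made after the data were seen, and the difference between the ratios was not tested. The median depth was 15080 UMIs in dividing Het and 17900 UMIs in dividing WT cells, and 11840 UMIs (Het) and 9876 UMIs (WT) in the others.

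In the dividing cells 6 members were at least 1.5-fold higher in the Het library and 0 lower, against 4.24% of genes higher and 4.93% lower. Those shares require 50 UMIs, and of the 4 members with as many, 2 were higher (Fdps and Hmgcs1). Cyp51 had 27 UMIs (55.8 CPM) in Het and 12 UMIs (15.6 CPM) in WT cells, 1.84 (0.81 to 2.95). Fdps had 109 UMIs (225 CPM) in Het and 89 UMIs (116 CPM) in WT cells, 0.96 (0.54 to 1.38), and Idi1 27 UMIs (55.8 CPM) in Het and 21 UMIs (27.4 CPM) in WT cells, 1.03 (0.15 to 1.92). In the other cells Cyp51 was at -0.75 (-1.44 to -0.10) and Fdps at -0.55 (-0.97 to -0.15), and 3.89% of genes were past 1.5-fold lower and 4.7% higher. Sqle had 0 UMIs in 73 Het cells, against 33 UMIs (20.3 CPM) in 154 WT cells. The WT level was 6.23-fold a floor of 3 UMIs over the Het cells (3.26 CPM). That value leaves out the counting error of the 33 WT UMIs, so it is no lower bound. All 11 Sqle UMIs of the Het Vcan cluster lay in its 29 dividing cells. Xist alone marked 89 Het and 1 WT cell of the cluster, and a Y-linked UMI alone 3 Het and 125 WT cells.

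The dividing cells of the other classes did not share one direction. In dividing dendritic cell-like cells the sum was 242 CPM (32 cells) in the Het and 205 CPM (33 cells) in the WT library, 0.24 (-0.09 to 0.56). In the other cells it was 219 CPM (154 cells) in the Het and 327 CPM (188 cells) in the WT library, -0.58 (-0.78 to -0.37). There 3 members were at least 1.5-fold lower in the Het library and 0 higher, against 4.37% of genes lower and 7.04% higher, and of the 6 members with 50 UMIs 2 were lower. The 3 members were Cyp51 at -1.35, Hmgcs1 at -1.08 and Sqle at -0.88. Within the WT library, dividing cells lay below the others by -0.67 (-0.94 to -0.41), and within the Het library the difference was 0.14 (-0.14 to 0.42).

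In dividing neutrophil-like cells the 8 members summed were lower in the Het library. The sum was 139 CPM (335 UMIs, 57 cells) in the Het and 175 CPM (478 UMIs, 75 cells) in the WT library, -0.34 (-0.54 to -0.13), and in the other neutrophil-like cells 123 CPM (520 UMIs) in the Het and 123.5 CPM (779 UMIs) in the WT library. Cyp51 had 20 UMIs in dividing Het and 50 UMIs in dividing WT cells, -1.15 (-1.97 to -0.37), and Hmgcs1 33 UMIs (Het) and 62 UMIs (WT), -0.74 (-1.39 to -0.10). No share over all genes was taken in dividing neutrophil-like cells. In the whole neutrophil-like class the median over all genes was -0.09, and 19.8% of genes had an interval below equality. The part of that shift in the lower sum was not tested. Dividing microglia-like cells had a sum of 107 CPM (42 UMIs, 24 cells) in the Het and 149.8 CPM (83 UMIs, 33 cells) in the WT library, -0.49 (-1.06 to 0.06), and in the other microglia-like cells 134 CPM (Het) and 119.7 CPM (WT), 0.17 (-0.09 to 0.42). The differences between these classes were not tested.

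**Figure D4:**
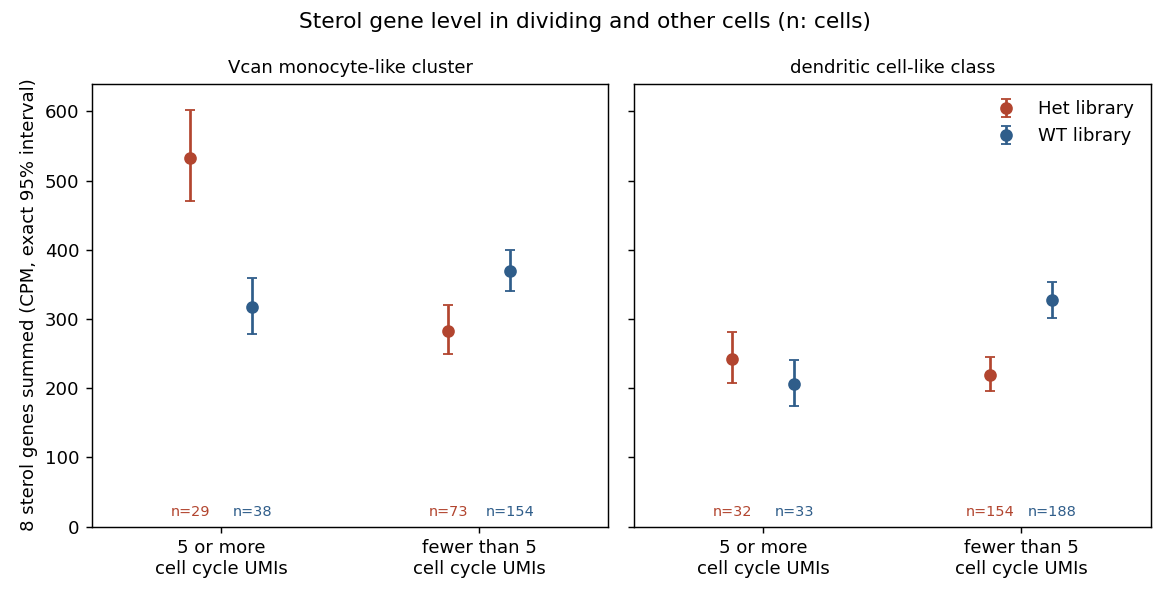
Summed level of the 8 sterol genes (vertical axis, CPM) in cells with 5 or more and with fewer than 5 UMIs of 6 cell cycle genes, the Het library left of the WT library, with exact 95% Poisson intervals and cell numbers. In the Vcan monocyte-like cluster the Het library is higher among dividing cells (533 CPM Het, 317 CPM WT) and lower among the others (283 CPM Het, 369 CPM WT). In the dendritic cell-like class only the other cells are apart (219 CPM Het, 327 CPM WT).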

How the data were processed

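One 10x Genomics single-cell RNA-seq library of each genotype was measured. The deposited values are raw UMI counts per gene and cell barcode, made by the authors with Cell Ranger. The submitters' processing notes give version 4.0 and mm10, and the file headers version 5.0.0, which was not settled. The lowest barcode in either matrix holds 500 UMIs.

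Cells with at least 500 genes and at most 10% mitochondrial UMIs were kept. Both libraries were clustered together (scanpy 1.11.5, igraph 0.11.9, Leiden resolution 0.5, 2000 variable genes without the sterol lists, 30 components). Classes were named from fixed markers by a rule set after the data were seen. Scrublet called 0 doublets, its thresholds (0.0885 Het, 0.128 WT) lying above the highest scores (0.0765 Het, 0.0756 WT), so doublets remain in. UMIs were summed per class and library. Intervals are exact Poisson for levels, exact conditional binomial for ratios and Clopper-Pearson for shares, at 95%. Intervals and the floor of 3 UMIs cover counting error only. A gene counts as measured with at least 50 UMIs over both sums. TMM factors came from edgeR 4.0.16 (R 4.3.3). Of the gene IDs, 32158 of 32285 matched GENCODE M21.

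The members and lists were chosen with earlier results of these data known. Every member is named, and of each list up to 4 genes with the highest absolute ratio past 1.5-fold. A few of these genes are left out of the text. Alternatives changed the cell filter, scaling, weights, depth, clustering, shared barcodes, dividing cells and sex marks. Where the cell filter changed, the cells were clustered and named again. The ratio calculations were tested on simulated data.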

Additional observations from a re-analysis of the deposited data

Results flagged for a closer look

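Among the Vcan monocyte-like cells, the Het over WT log2 ratio had opposite signs in dividing and in other cells, with each interval excluding 0. For the 8 genes summed it was 0.752 in dividing cells and -0.382 in the others. For Cyp51 it was 1.836 in dividing cells and -0.748 in the others, and for Fdps 0.958 in dividing cells and -0.552 in the others. The difference between the ratios was not tested, since each genotype has 1 library.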

How the results depend on the processing

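Of 90 alternative values of the summed ratios, 61 stayed within the counting interval of the reported value, 28 moved and 1 reversed; of 404 values of single genes, 357 did so, 41 moved and 6 reversed. The cause was not tested. In the Het over WT ratio of the sum, microglia-like cells gave -0.267 with no cell filter, 0.302 thinned to 2000 UMIs and 0.565 in Xist-marked cells. Monocyte-like cells gave -0.148 with no filter, -0.070 with the stricter filter, -0.149 with equal weight per cell, -0.407 thinned, -0.136 at Leiden resolution 1.0, -0.267 with libraries clustered alone and -0.173 without dividing cells. Neutrophil-like cells gave 0.300 thinned and 0.066 in Xist-marked cells. Dendritic cell-like cells gave -0.005 with the stricter filter, -0.197 with equal weight, -0.069 at resolution 1.0, -0.575 without dividing cells and, reversed, 1.259 in Xist-marked cells. Microglia-like over monocyte-like cells gave, in the Het library, -1.803 with no filter, -0.895 with the stricter filter, -0.841 thinned, -1.415 at resolution 0.25, -0.855 clustered alone and -0.843 without dividing cells. In the WT library it gave -1.684 with no filter, -1.351 with equal weight, -1.550 thinned, -1.490 at resolution 1.0 and -0.829 in Y-marked cells. Dividing Vcan cells gave 0.456 with a threshold of 2 cell cycle UMIs. Single genes reversed for Fdps in monocyte-like cells (-0.444 thinned, -0.124 clustered alone), Insig1 in neutrophil-like cells (0.020 at resolution 1.0, 0.006 clustered alone), and Hmgcs1 (0.212) and Cyp51 (1.089) in Xist-marked dendritic cell-like cells. No paired analysis was possible because each genotype has 1 library. Most member values rest on under 100 UMIs in a class of 1 library, which limits what their ratios can show.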
